A study of Homo sapiens with 9 samples.

Results

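The 10 genes described here encode proteins of retroelement and repeat silencing, most of which place, bind or spread methylation of lysine 9 of histone H3 (H3K9): SETDB1, ATF7IP, TASOR, MPHOSPH8, PPHLN1, MORC2, EHMT1, EHMT2, KDM1A and CBX5. The rule that picks them uses the gene symbol. Each symbol matched 1 Ensembl gene identifier among the 60617 in the count files, and all 10 were among the 18532 genes with enough counts to be tested. RNA was sequenced from PC-3 cells, an established cell line from a bone metastasis of a human prostate cancer, in 9 libraries. The 3 control libraries came from cells given vehicle, 3 libraries from cells given 1 µM decitabine, and 3 from cells given 1 µM decitabine together with 200 µM S-adenosylmethionine (SAM). Treatment lasted 5 days, the labels name no genetic change in any group, and SAM as a single agent is not analysed here. Decitabine is a cytidine analogue that traps DNA methyltransferases and lowers DNA methylation, and SAM is the methyl donor of DNA and histone methyltransferases. The labels number the replicates but do not say whether they were separate cultures, so p-values measure the spread between these libraries, which may be technical.

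The HUSH complex, built on TASOR with MPHOSPH8 and periphilin (PPHLN1), binds transcribed long foreign or retroelement sequence and recruits SETDB1 and the ATPase MORC2, so that H3K9 trimethylation and compaction spread over the locus. SETDB1 depends on its partner ATF7IP for stability and nuclear localisation. EHMT1 (GLP) and EHMT2 (G9a) form a heterodimer that places mono- and dimethylation on H3K9, KDM1A (LSD1) removes methyl groups from lysine 4 of histone H3 in the CoREST complex, and CBX5 (HP1 alpha) binds methylated H3K9. In many cell types these proteins act beside DNA methylation on the same elements, which is why their transcripts are of interest in cells given a DNA-demethylating agent.

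Libraries held between 21934307 and 22489684 estimated counts. Levels below are CPM, counts relative to the library total, scaled by the TMM method, which corrects each library for a shift in composition, and its factors were 0.895 to 0.902 in the controls, 1.06 to 1.08 after decitabine and 1.03 to 1.07 after the combination. Of the 5 markers that PC-3 cells should express, KRT8, KRT18 and VIM were at means of 119.6, 425 and 1261 CPM in the controls, EPCAM at 17.2 CPM and CDH1 at 1.87 CPM. KRT8 rose 2.21-fold with decitabine and 1.74-fold with the combination, and CDH1 rose 7.65-fold and 9.03-fold. VIM fell to 589 and 509.5 CPM and KRT18 to 357 and 315 CPM in the same order, while EPCAM did not pass the test. KLK3, which this line is known to lack, had no counts in any library. The endothelial marker PECAM1 was at 9.77 to 10.3 CPM in the controls and 29.6 to 43.1 CPM in the treated libraries, the leukocyte marker PTPRC stayed at or below 1.26 CPM, the fibroblast marker DCN stayed at or below 1.62 CPM, and their part in the results was not tested. Combination replicate 3 stood apart from the other 2 combination libraries in its interferon-stimulated genes. The differences of CBX5 and PPHLN1 between the treatments are also given without it, while the counts of interferon-stimulated genes called are given only with it.

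After decitabine 8 of the 10 genes were lower and 1, MORC2, was higher, while MPHOSPH8 did not pass the test. The threshold was an adjusted p of 0.05 by edgeR's quasi-likelihood test with Benjamini-Hochberg adjustment over all 18532 genes. Among all genes tested, 68.8% were called, 32.5% lower and 36.3% higher. With the combination, 7 genes were lower, none was higher (also by DESeq2 and by voom with limma) and 3 did not pass even before adjustment (MPHOSPH8, MORC2 and CBX5), where 67.2% of all genes were called, 31.3% lower and 35.9% higher. The genes called lower were also those whose 3 treated libraries all lay below the 3 controls, 8 after decitabine and 7 after the combination, as did 34.8% and 33.6% of all genes. No member had all treated libraries above the controls, as 38.0% and 37.9% of all genes did. Members lower by over 0.5 on the log2 scale were SETDB1, EHMT1, EHMT2 and CBX5 with decitabine, where 20.1% of all genes were, and SETDB1, ATF7IP, PPHLN1, EHMT1 and EHMT2 with the combination, where 19.9% were. On the log2 scale the median change of the 10 genes was -0.42 after decitabine and -0.46 after the combination, beside 0.04 and 0.05 over the whole set tested. Both comparisons use the same 3 control libraries, so they are given side by side and not as independent results. Between the treatments CBX5 was higher and PPHLN1 was lower with the combination, and the other 8 genes did not pass the test, where 15.7% of all genes were called, 7.67% higher and 8.02% lower. No member was lower by over 0.5 between the treatments, as 4.54% of all genes were. The calls of lower levels against the controls, 8 and 7, were made in each of the 9 fits that left out a library. In bulk RNA, fewer cells and less RNA per cell cannot be told apart.

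**Figure D1:**
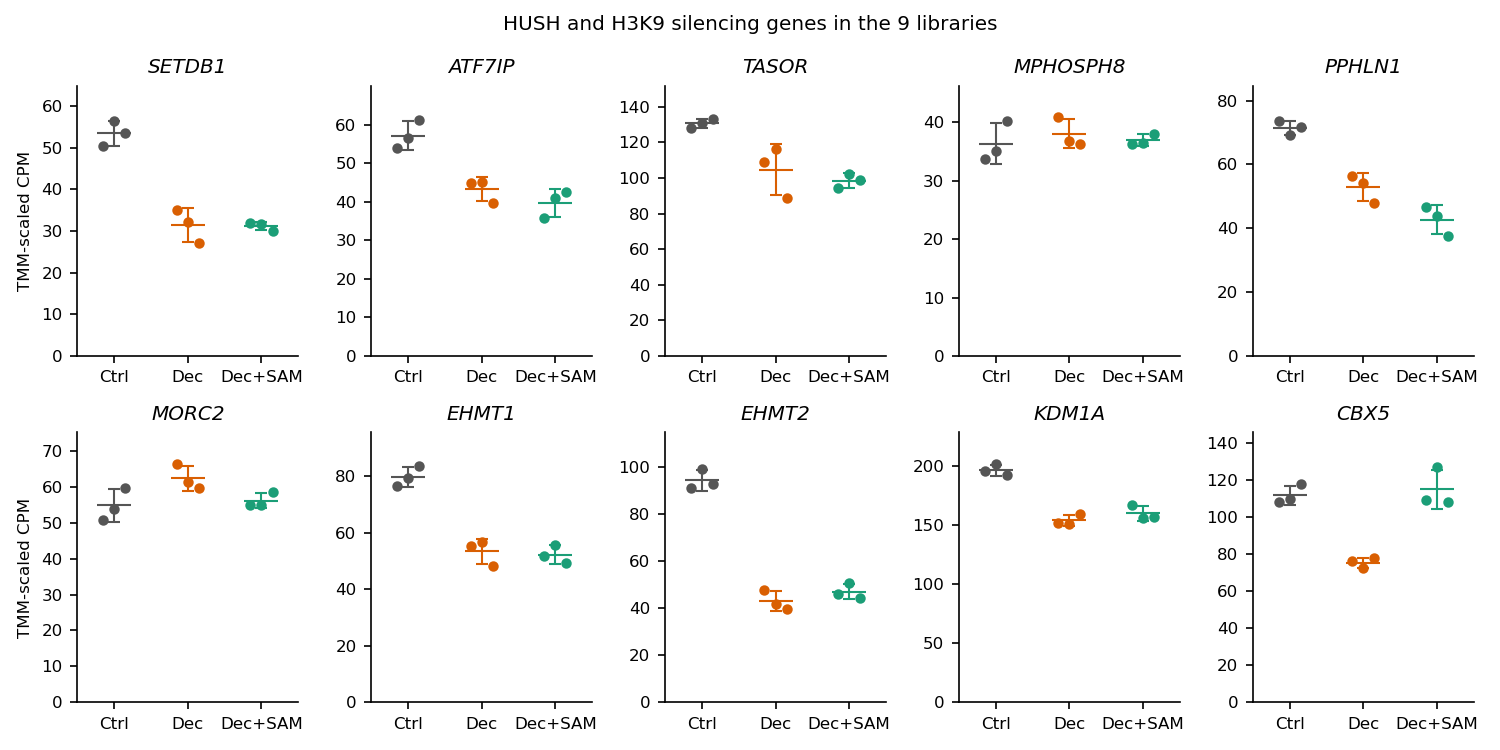
TMM-scaled CPM (vertical axes, each starting at 0) of the 10 genes in the control (Ctrl), decitabine (Dec) and combination (Dec+SAM) libraries. Points are libraries, the wide bar is the mean and the whiskers are 1 SD (n = 3). EHMT2 falls from between 91.1 and 99.3 CPM in the controls to between 39.5 and 50.7 CPM in the 6 treated libraries, and CBX5 is low in the decitabine libraries alone.

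In the HUSH core, TASOR and PPHLN1 were lower in both treatments and MPHOSPH8 did not pass the test. TASOR, the scaffold on which the complex assembles, lies at chr3:56620132-56683265 (GRCh38, minus strand). Its level was 128, 131 and 133 CPM in control replicates 1 to 3, 109, 116 and 88.7 CPM after decitabine and 94.4, 102.5 and 98.8 CPM after the combination. All 6 treated libraries lay below the controls, with the lowest value in decitabine replicate 3. The log2 fold change was -0.32 ± 0.09 (SE, n = 3 per group, adjusted p = 0.0046) with decitabine and -0.41 ± 0.09 (adjusted p = 0.00085) with the combination. Treatments differed by -0.09 on the log2 scale (95% interval -0.27 to 0.10, adjusted p = 0.54).

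MPHOSPH8 (chr13:19633659-19673441, plus strand) encodes M-phase phosphoprotein 8, the chromodomain subunit through which HUSH binds H3K9 trimethylation. It stood at 33.6, 35.1 and 40.3 CPM in the controls, 40.9, 36.9 and 36.4 CPM after decitabine and 36.3, 36.5 and 38.1 CPM after the combination, so the 3 groups overlapped. Neither treatment passed the test, with log2 fold changes of 0.07 (95% interval -0.12 to 0.25, adjusted p = 0.51) and 0.02 (-0.16 to 0.21, adjusted p = 0.82). Per kilobase of the main transcript, the ratio of MPHOSPH8 to TASOR was 0.507 to 0.584 in the controls, 0.612 to 0.790 after decitabine and 0.687 to 0.743 after the combination. The 6 treated ratios were thus above those of the controls.

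PPHLN1 (chr12:42238447-42459715, plus strand), the periphilin subunit that joins TASOR and RNA, had the largest log2 fold changes of the 3 HUSH core genes. The controls held 73.6, 69.1 and 71.6 CPM, the decitabine libraries 56.5, 54.3 and 48.0 CPM and the combination libraries 46.5, 43.8 and 37.6 CPM. No group overlapped another, and the 3 combination libraries were below the 3 decitabine libraries. PPHLN1 fell by 0.43 ± 0.09 on the log2 scale with decitabine (n = 3 per group, adjusted p = 0.00053) and by 0.74 ± 0.09 with the combination (adjusted p = 4.4e-06), which left 59.7% of the control level. The difference between the treatments, -0.31 ± 0.09, passed the threshold with an adjusted p of 0.03. That call was lost without decitabine replicate 1 (adjusted p = 0.101), decitabine replicate 2 (0.114), combination replicate 2 (0.0922) or combination replicate 3 (0.0705), with values from -0.38 to -0.23 over the 9 fits that left out a library, and in a fit of the 6 treated libraries alone (-0.32, adjusted p = 0.0597).

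MORC2 (chr22:30925130-30968774, minus strand), an ATPase that HUSH recruits and that compacts chromatin, was the gene with a higher level after decitabine. The 250 bases before its RefSeq start are shown because it was the 1 member called higher after decitabine (GRCh38.p14, chr22:30968775-30969024, minus strand). Their 31 CpG sites are in capitals, and the methylation of these sites was not tested.
MORC2: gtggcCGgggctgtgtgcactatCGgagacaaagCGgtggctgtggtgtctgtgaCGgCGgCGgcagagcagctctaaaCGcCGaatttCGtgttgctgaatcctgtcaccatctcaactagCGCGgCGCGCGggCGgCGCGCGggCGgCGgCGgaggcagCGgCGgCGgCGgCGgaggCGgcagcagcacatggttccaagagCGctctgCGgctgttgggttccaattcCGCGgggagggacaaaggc
Levels of MORC2 were 50.8, 53.7 and 59.7 CPM in the controls, 66.2, 61.2 and 59.7 CPM after decitabine and 54.8, 54.8 and 58.6 CPM after the combination. Decitabine replicate 3 lay within the control range, so these groups overlapped. The log2 fold change was 0.19 ± 0.08 with decitabine (n = 3 per group, adjusted p = 0.044) and 0.04 ± 0.08 with the combination (adjusted p = 0.7). The decitabine call was made in 3 of the 9 fits that left out a library and was lost without control replicate 1 (adjusted p = 0.2), control replicate 2 (0.14), decitabine replicate 1 (0.169), decitabine replicate 2 (0.08), combination replicate 1 (0.0556) or combination replicate 2 (0.0699). All 3 combination libraries of MORC2 were below the 3 decitabine libraries, which was so for 16.8% of all genes tested, but the difference of -0.15 ± 0.08 did not pass (adjusted p = 0.2).

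SETDB1 (chr1:150926263-150964744, plus strand), the H3K9 trimethylating enzyme that HUSH and TRIM28 recruit, fell in both treatments. Its level was 50.5, 56.4 and 53.6 CPM in the controls, 35.1, 32.1 and 27.2 CPM after decitabine and 32.0, 31.6 and 30.0 CPM after the combination. The highest treated library lay well below the lowest control. SETDB1 had a log2 fold change of -0.76 ± 0.09 with decitabine (n = 3 per group, adjusted p = 4.7e-06) and -0.78 ± 0.09 with the combination (adjusted p = 4.3e-06), which left 58.9% and 58.4% of the control level. Between the treatments the difference was -0.01, with a 95% interval from -0.21 to 0.19 (adjusted p = 0.95).

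ATF7IP (chr12:14365676-14502931, plus strand) encodes the partner that stabilises SETDB1 and keeps it in the nucleus. The gene was at 53.8, 56.4 and 61.2 CPM in the controls, 45.0, 45.1 and 39.6 CPM after decitabine and 35.7, 41.1 and 42.6 CPM after the combination. No treated library reached the control range, while the treated groups overlapped each other. ATF7IP fell by 0.40 ± 0.09 on the log2 scale with decitabine (n = 3 per group, adjusted p = 0.00095) and by 0.52 ± 0.09 with the combination (adjusted p = 0.00012). Per kilobase, the ratio of ATF7IP to SETDB1 was 0.536 ± 0.036 (SD, n = 3) in the controls, 0.691 ± 0.046 after decitabine and 0.639 ± 0.077 after the combination.

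EHMT2, which encodes G9a and lies at chr6:31879759-31897698 on the minus strand, changed most among the 10 genes. Its start faces that of the complement gene C2, and the 86 bases before the RefSeq start, up to the start of C2, are shown to place the gene whose level changed most (GRCh38.p14, chr6:31897699-31897784, minus strand, 10 CpG sites in capitals).
EHMT2: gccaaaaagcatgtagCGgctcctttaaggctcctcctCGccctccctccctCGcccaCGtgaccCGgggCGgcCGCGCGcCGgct
The controls held 91.1, 99.3 and 92.5 CPM of EHMT2, the decitabine libraries 47.6, 41.6 and 39.5 CPM and the combination libraries 46.2, 50.7 and 44.4 CPM. The highest treated library was far below the lowest control. The log2 fold change was -1.14 ± 0.08 with decitabine (n = 3 per group, adjusted p = 3.9e-08), a level 2.20-fold lower, and -1.001 ± 0.084 with the combination (adjusted p = 1.3e-07). The treatments differed by 0.13 (95% interval -0.05 to 0.31, adjusted p = 0.3). C2, named for its position and after its values were seen, was at 0.943 to 1.53 CPM in the controls and rose to 2.58 to 3.45 CPM after decitabine and 3.79 to 3.998 CPM after the combination.

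EHMT1 (chr9:137618992-137870016, plus strand) encodes GLP, the other subunit of the heterodimer. Its fold changes were smaller than those of EHMT2, a difference between genes that was not tested. It was measured at 76.5, 79.3 and 83.5 CPM in the controls, 55.4, 56.7 and 48.3 CPM after decitabine and 51.7, 55.8 and 49.4 CPM after the combination. The treated groups overlapped each other and lay wholly below the controls. EHMT1 had a log2 fold change of -0.58 ± 0.08 with decitabine (n = 3 per group, adjusted p = 1.8e-05) and -0.61 ± 0.08 with the combination (adjusted p = 1.1e-05). The ratio of EHMT2 to EHMT1 per kilobase was 1.42 to 1.60 in the controls, 0.939 to 1.10 after decitabine and 1.14 to 1.16 after the combination. Every treated library thus had a lower ratio than every control, and the ratio itself depends on the transcript lengths used.

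KDM1A (chr1:23019443-23083689, plus strand), the LSD1 demethylase, had the highest level of the 10 genes per kilobase of its canonical transcript. Its values were 195.5, 201.2 and 192 CPM in the controls, 152, 151 and 159 CPM after decitabine and 167, 156 and 157 CPM after the combination. The fall was small against its level but larger than the spread, since the treated libraries all lay below the controls. KDM1A had a log2 fold change of -0.35 ± 0.06 with decitabine (n = 3 per group, adjusted p = 0.00023) and -0.30 ± 0.06 with the combination (adjusted p = 0.00093), and neither 95% interval reached a change of 0.5. The treatments differed by 0.05 (95% interval -0.08 to 0.19).

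CBX5 was lower with decitabine and higher with the combination than with decitabine. It encodes HP1 alpha, which binds di- and trimethylated H3K9 through its chromodomain, and lies at chr12:54230942-54280133 on the minus strand. Its start faces that of HNRNPA1, an RNA-binding splicing factor gene, with 60 bases between the annotated starts. RefSeq lists 3 starts of CBX5, and the one nearest its GENCODE start was used. The 70 bases before it, up to the start of HNRNPA1, are shown because both genes are transcribed away from them (GRCh38.p14, chr12:54280123-54280192, minus strand, 6 CpG sites in capitals).
CBX5: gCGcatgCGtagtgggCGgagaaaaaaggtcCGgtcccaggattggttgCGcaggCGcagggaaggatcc
The controls held 108, 109.5 and 118 CPM of CBX5, the decitabine libraries 76.1, 72.3 and 77.6 CPM and the combination libraries 109.3, 127 and 108 CPM. Decitabine libraries lay below all the others, and the combination libraries overlapped the controls. Over all genes tested, 17.2% had their combination libraries wholly above the decitabine libraries. The log2 fold change was -0.57 ± 0.08 with decitabine (n = 3 per group, adjusted p = 1.3e-05) and 0.04 with the combination (95% interval -0.12 to 0.20, adjusted p = 0.66). Between the treatments CBX5 was 1.52-fold higher with the combination, 0.61 on the log2 scale (95% interval 0.44 to 0.77, adjusted p = 0.00046). That call was made in all 17 alternative fits, with values from 0.53 to 0.65.

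**Figure D2:**
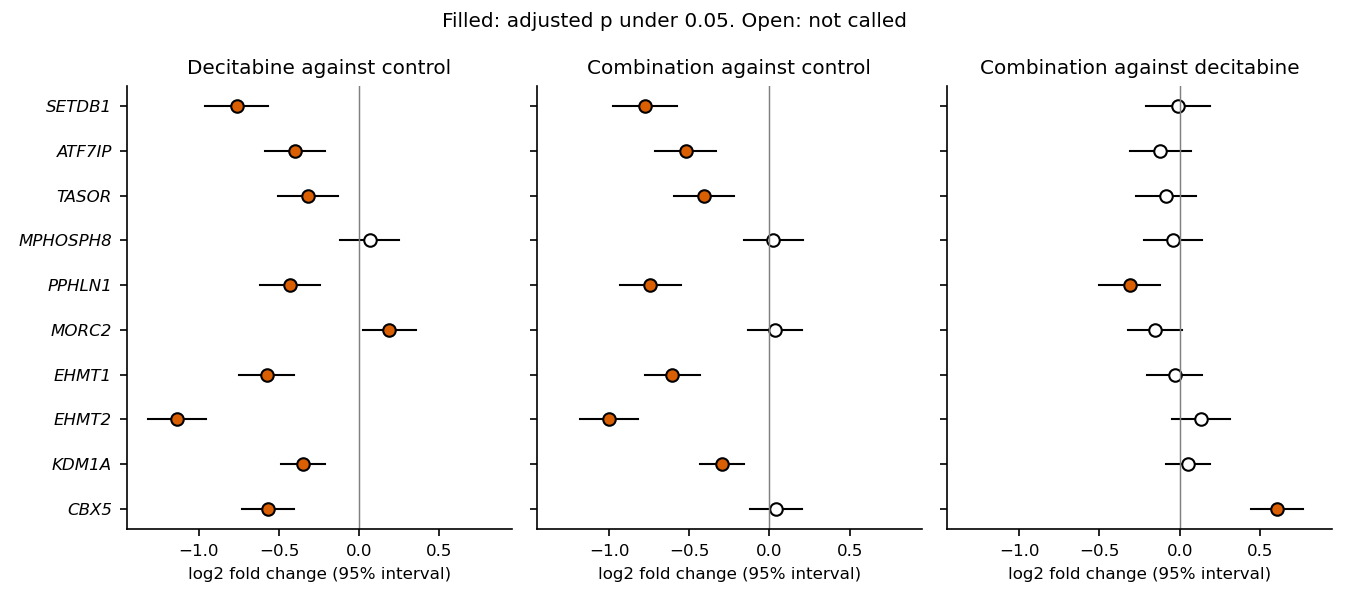
Log2 fold changes of the 10 genes in the 3 comparisons (horizontal axes) with 95% intervals as lines. Filled points have an adjusted p under 0.05 by edgeR's quasi-likelihood test. CBX5 lies at -0.57 with decitabine and 0.04 with the combination against the controls, and at 0.61 between the treatments, while EHMT2 lies at -1.14 with decitabine and -1.001 with the combination.

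HNRNPA1, named for its position next to CBX5 and after its values were seen, stood at 1450 to 1609 CPM in the controls, 564 to 724 CPM after decitabine and 563 to 678 CPM after the combination. It fell by 1.20 ± 0.10 on the log2 scale with decitabine (adjusted p = 1.3e-07) and by 1.29 ± 0.10 with the combination (adjusted p = 7e-08), and the treatments differed by -0.09 (95% interval -0.31 to 0.12). The other HP1 genes are on the list of H3K9 readers. CBX1 (HP1 beta) was at 232 ± 7 CPM (SD, n = 3) in the controls, 159 ± 7 CPM after decitabine and 169 ± 8 CPM after the combination, and its difference between the treatments was 0.09 (95% interval -0.05 to 0.23). CBX3 (HP1 gamma) was at 290.5 ± 9.2 CPM, 249 ± 19 CPM and 270.1 ± 24.8 CPM in the same order, with a difference of 0.12 between the treatments (95% interval -0.06 to 0.29). Per kilobase, the ratio of CBX5 to CBX1 was 0.088 to 0.094 in the controls, 0.084 to 0.097 after decitabine and 0.124 to 0.135 after the combination.

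Among the 6 genes listed as other HP1 proteins and H3K9 readers, 5 fell with decitabine and none rose, and 3 fell and 1 rose with the combination. Of the 6, 3 were higher with the combination than with decitabine. UHRF1, which brings the maintenance DNA methyltransferase to hemimethylated DNA, was at 152 ± 21 CPM in the controls, 86.7 ± 2.8 CPM after decitabine and 127 ± 14 CPM after the combination. It fell by 0.81 ± 0.10 on the log2 scale with decitabine (adjusted p = 7.8e-06) and was higher by 0.56 ± 0.10 in the combination than with decitabine (adjusted p = 0.0039). UHRF2, its paralog, was higher by 0.47 ± 0.08 with the combination (adjusted p = 0.0026) and LBR, the lamin B receptor, by 0.25 ± 0.07 (adjusted p = 0.029). TNRC18, which binds H3K9 trimethylation at endogenous retroviruses, fell by 0.47 ± 0.08 with decitabine (adjusted p = 0.00019) and by 0.62 ± 0.08 with the combination (adjusted p = 1.5e-05).

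**Figure D3:**
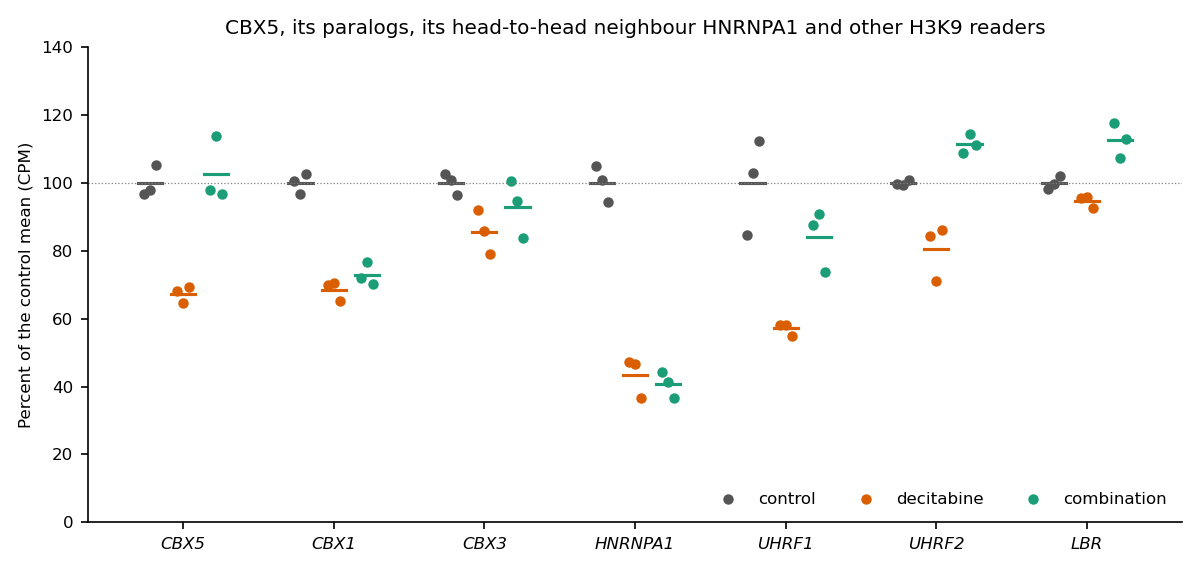
CPM of CBX5, the HP1 paralogs CBX1 and CBX3, the neighbour HNRNPA1 and 3 other genes of the list of HP1 proteins and H3K9 readers. Values are percent of the mean of the 3 controls (vertical axis, from 0). Points are libraries, bars are group means and the dotted line marks 100 percent. CBX5, UHRF1, UHRF2 and LBR are higher in the combination libraries than in the decitabine libraries, whereas HNRNPA1 and CBX1 are low in both treatments. UHRF1, UHRF2 and LBR are the 3 genes of that list called higher between the treatments. TNRC18, also on that list, is not shown, and its log2 difference of -0.16 between the treatments did not pass.

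Cell cycle genes were measured as companions of these levels. All 15 genes of that list fell with decitabine, 11 fell and 1 rose with the combination, and 7 were higher and none lower with the combination than with decitabine. Of all genes tested, 32.5% fell with decitabine, and 31.3% fell and 35.9% rose with the combination. Between the treatments 7.67% were higher and 8.02% lower. The summed level of the 15 cell cycle genes was 1990 to 2250 CPM in the controls, 1090 to 1320 CPM after decitabine and 1350 to 1590 CPM after the combination. PLK1, a mitotic kinase, was at 102 ± 4 CPM in the controls, 31.5 ± 2.2 CPM after decitabine and 52.7 ± 8.9 CPM after the combination. TOP2A, the topoisomerase of dividing cells, was at 305 ± 15 CPM, 138 ± 28 CPM and 167 ± 9 CPM in the same order. The part of the cell cycle in the levels of the 10 genes was not tested.

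The 51 other genes of the pathway, in 5 lists, were all tested. With decitabine 7 rose, 29 fell and 15 did not pass, and with the combination 9 rose, 26 fell and 16 did not pass, beside 36.3% higher and 32.5% lower of all genes tested with decitabine and 35.9% and 31.3% with the combination. The counts of the single lists stand beside the same shares. Between the treatments 4 were higher with the combination and none was lower by edgeR's test, by DESeq2 or by voom with limma, and 12 had an unadjusted p under 0.05, where 7.67% of all genes tested were higher and 8.02% lower. The higher ones were SUV39H1, UHRF1, UHRF2 and LBR, and the count rose to 7 when combination replicate 3 was left out and dropped to 2 when decitabine replicate 1 or 2 or combination replicate 1 or 2 was. Medians of the 51 genes on the log2 scale were -0.25 after decitabine, -0.20 after the combination and 0.04 between the treatments.

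Of the 15 partners of HUSH and SETDB1, 9 fell and 1 rose in each treatment. TRIM28 (KAP1), the corepressor that brings SETDB1 to KRAB zinc finger proteins, was at 697 ± 21 CPM in the controls, 348 ± 9 CPM after decitabine and 356 ± 30 CPM after the combination, and fell by 1.002 ± 0.075 on the log2 scale with decitabine (adjusted p = 4.1e-08). ATRX, a chromatin remodeller that deposits histone H3.3 at repeats, was at 144 ± 2 CPM, 65.7 ± 12.7 CPM and 67.8 ± 4.0 CPM in the same order. CHAF1A, the large subunit of chromatin assembly factor 1, was at 70.6 ± 7.8 CPM, 35.8 ± 2.7 CPM and 41.9 ± 4.2 CPM. All 3 genes had treated libraries wholly below the controls.

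Of the 8 other H3K9 methyltransferases and G9a/GLP partners, 3 fell and 1 rose with decitabine, and 1 fell and 1 rose with the combination. SUV39H1, the trimethylating enzyme of pericentromeric heterochromatin, was at 56.1 ± 3.7 CPM in the controls, 20.9 ± 0.7 CPM after decitabine and 26.3 ± 2.8 CPM after the combination. It fell by 1.43 ± 0.09 on the log2 scale with decitabine (adjusted p = 9.2e-09) and by 1.09 ± 0.09 with the combination (adjusted p = 1.1e-07). SETDB2, a relative of SETDB1, rose from 9.93 ± 0.83 CPM to 14.5 ± 1.4 CPM and 14.9 ± 1.4 CPM. WIZ, a zinc finger partner of G9a, fell by 0.25 ± 0.07 with decitabine (adjusted p = 0.0063) and had a log2 fold change of -0.12 with the combination (adjusted p = 0.15).

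Of the 12 CoREST and LSD1 partners, 4 rose and 6 fell in each treatment. HDAC1, the deacetylase of the complex, fell from 318 ± 16 CPM to 164 ± 17 CPM with decitabine and 155 ± 3 CPM with the combination. ZMYM3, a zinc finger subunit, fell from 92.8 ± 5.3 CPM to 50.1 ± 5.9 CPM and 45.5 ± 3.0 CPM. RCOR2, a CoREST paralog, was low in the controls at 0.199 to 0.5 CPM and rose to 1.23 to 1.65 CPM with decitabine and 1.91 to 2.65 CPM with the combination. It passed the count filter through the treated libraries. Of the 10 H3K9 demethylases, which remove the mark, 6 fell and 1 rose with decitabine, and 7 fell and 2 rose with the combination. PHF2 fell from 42.7 ± 2.5 CPM to 21.3 ± 3.5 CPM and 19.0 ± 0.8 CPM, KDM4A fell by 0.72 ± 0.09 and 0.60 ± 0.09 on the log2 scale, and KDM4B fell by 0.60 ± 0.09 and 0.74 ± 0.09.

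**Figure D4:**
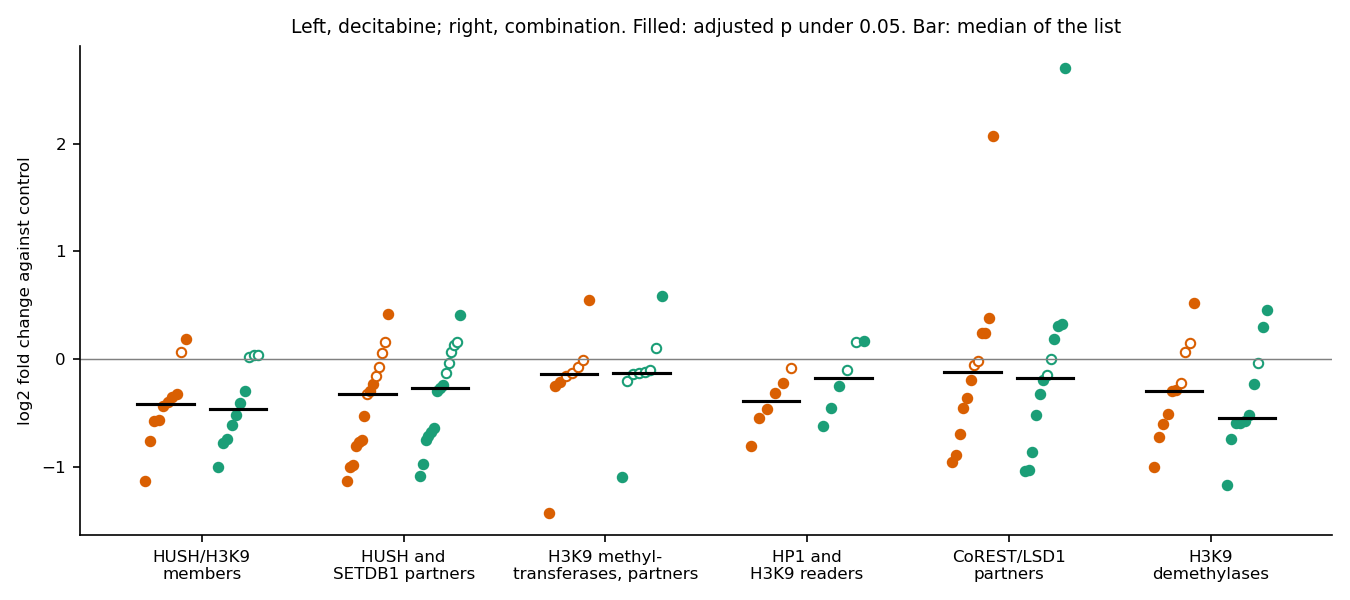
Log2 fold change against the controls (vertical axis) of each of the 10 genes and of the 51 other pathway genes by list, with decitabine on the left (orange) and the combination on the right (green) of each pair. Filled points have an adjusted p under 0.05 and bars are list medians. The median of the 10 genes is -0.42 with decitabine and -0.46 with the combination, and RCOR2 stands apart above 2.

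With library size as the only scaling, the median over the whole set tested moved to 0.28 with decitabine and 0.27 with the combination on the log2 scale, and the 10 genes gave 4 lower and 2 higher with decitabine and 5 lower and 3 higher with the combination. The decitabine calls of ATF7IP (-0.16), TASOR (-0.08), PPHLN1 (-0.19) and KDM1A (-0.10) were lost, as were the combination calls of TASOR (-0.19) and KDM1A (-0.07), and no member changed direction in either treatment. SETDB1, EHMT1, EHMT2 and, with decitabine, CBX5 stayed lower under that scaling too. The 51 other pathway genes then gave 19 lower and 13 higher with decitabine, and 19 lower and 15 higher with the combination. MPHOSPH8 then passed as higher in both treatments (0.31 and 0.25), and so did MORC2 (0.26) and CBX5 (0.26) with the combination.

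Levels of different genes were compared per kilobase of the canonical transcript. In the controls the order was KDM1A at 63.6 ± 1.5 CPM per kilobase (SD, n = 3), PPHLN1 at 38.4 ± 1.2, EHMT2 at 23.7 ± 1.1, TASOR at 16 ± 0.3, EHMT1 at 15.7 ± 0.7, SETDB1 at 12.1 ± 0.7, MORC2 at 9.68 ± 0.81, CBX5 at 9.68 ± 0.45, MPHOSPH8 at 8.58 ± 0.82 and ATF7IP at 6.48 ± 0.43. TASOR and EHMT1 overlapped, as did MORC2, CBX5 and MPHOSPH8, and no libraries overlapped at any other step of the order. The order depends on the length used: per kilobase of all merged exons TASOR came first at 13.3, followed by EHMT2 at 12.9 and KDM1A at 10.7, and EHMT1 came last at 3.59. The CPM of the 10 genes summed to 862 to 906 in the controls, 624 to 684 after decitabine and 664 to 700 after the combination.

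Across the 9 libraries, which share the 3 group levels, SETDB1, ATF7IP, TASOR, PPHLN1, EHMT1, EHMT2 and KDM1A moved together, with Pearson correlations of log2 CPM from 0.717 for TASOR with KDM1A to 0.981 for SETDB1 with EHMT2. MORC2 and MPHOSPH8 correlated at 0.85 with each other. CBX5 correlated at 0.42 with SETDB1 and at 0.04 with PPHLN1. Of 13622 other genes with mean counts of 50 or more, those most like EHMT2 were DTNB, LIG3 and PITRM1 at 0.997, 0.996 and 0.995, and those most like MORC2 were EMC3-AS1, ATP8A2 and TMEM161B at 0.956, 0.950 and 0.945. For CBX5, chosen after the values were seen, they were PAPSS2, TUBGCP4 and SART3 at 0.988, 0.984 and 0.979. PAPSS2 had means of 86.9 CPM in the controls, 60.9 CPM after decitabine and 93.3 CPM after the combination.

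RefSeq promoter windows of 300 bases, from 250 before to 50 after the start, were found for all 10 genes. SETDB1, ATF7IP, TASOR, PPHLN1 and CBX5 had more than 1, and the window nearest the outermost GENCODE start was used. The counts hold for that choice. They held 15 to 51 CpG sites, with the fewest in SETDB1 and the most in EHMT1, where the median of 35116 windows was 14. The GC box GGGCGG, searched on both strands, was in 8 of the 10 windows and in 45.0% of all windows, and the CCAAT box CCAAT was in 5 and in 34.6%. The E2F motifs TTTCCCGC and TTTGGCGC were in none of the 10 windows and in 2.27% of all, and the ETS motif CCGGAAG in 1, that of PPHLN1, and in 10.3%. The RefSeq window of PPHLN1 lies 87720 bases from the outermost start in GENCODE.

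Several members share their locus with another gene, and the sources used here do not say whether reads were counted by strand. SETDB1 overlaps CERS2, TASOR overlaps CCDC66 and PPHLN1 overlaps ZCRB1 and PRICKLE1, all on the opposite strand, and these genes, named for their position, also fell with decitabine, by 0.29, 0.83, 0.63 and 0.49 on the log2 scale. Between the treatments they differed by 0.027, 0.307, 0.173 and -0.275 in that order, and CCDC66 alone was called. The outermost GENCODE start of PPHLN1 faces that of YAF2. YAF2 fell by 0.31 with decitabine and was higher by 0.53 with the combination than with decitabine. Whether reads were shared was not tested. MORC2 faces TUG1, which was at 140 ± 9 CPM in the controls, 147 ± 2 CPM after decitabine and 109.8 ± 19.2 CPM after the combination. The processed copy CBX5P1 had no more than 1 count in any library.

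Genes derived from retroelements, some of them well expressed in the controls, were measured beside the silencing genes. Of 17 retroelement-derived genes, 16 had a row in the files and 11 had enough counts, of which 6 rose and 3 fell with each treatment. Among all genes tested, 36.3% were higher and 32.5% lower with decitabine, and 35.9% and 31.3% with the combination. L1TD1 and ERVH48-1 passed the count filter only through the treated libraries, so their rise follows from how they entered the test. RTL1, named for its low controls (0.149 to 0.987 CPM) and called higher in both treatments, also needed the treated libraries to pass. So did ERVMER34-1, called higher with the combination alone, whose controls were at 0.4465 to 0.839 CPM. L1TD1, which carries a domesticated LINE-1 ORF1 protein, had 0 counts in the 3 controls, 0.550 to 1.22 CPM after decitabine and 0.652 to 0.766 CPM after the combination. ERVH48-1, a domesticated envelope gene, was at 0 to 0.1 CPM in the controls, 5.54 to 7.98 CPM after decitabine and 4.64 to 5.76 CPM after the combination. The summed level of the 16 genes was 436 to 493 CPM in the controls, 424 to 468 CPM after decitabine and 415 to 447 CPM after the combination, so the ranges of the 3 groups overlapped. PEG10, named after its values were seen, was the largest single part of that sum in every library, and most of it in the controls. It was at 273 ± 27 CPM in the controls, 208 ± 36 CPM after decitabine and 190.1 ± 15.7 CPM after the combination. ERVK3-1, named likewise, rose from 80.1 ± 0.8 CPM to 140.1 ± 11.2 CPM with decitabine and 143 ± 6 CPM with the combination.

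Interferon-stimulated genes, which respond to double-stranded RNA and to interferon, were also measured. All 15 rose with decitabine, 14 rose with the combination, and 13 were lower with the combination than with decitabine. The shares of all genes tested were 36.3%, 35.9% and 8.02% in that order. IFI27 was at 5.38 to 8.98 CPM in the controls, 500.5 to 729 CPM after decitabine and 93.3 to 322 CPM after the combination. IFI6 was at 13.3 to 32.5 CPM, 717 to 1198 CPM and 92.0 to 442 CPM in the same order. IFI27 and IFI6 were the 2 genes of the list that did not pass between the treatments (adjusted p = 0.058 and 0.092). The summed level of the 15 genes was 556 to 696 CPM in the controls and 8570 to 9330 CPM after decitabine, and in the combination it was 1500 and 1650 CPM in replicates 1 and 2 and 3990 CPM in replicate 3, which stood apart. Without combination replicate 3, CBX5 differed between the treatments by 0.65 (adjusted p = 7.87e-05) and PPHLN1 by -0.23 (adjusted p = 0.0705). The part of the interferon response in the levels of the 10 genes was not tested.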

How the data were processed

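RNA of 9 PC-3 libraries was sequenced on the BGISEQ-500 platform. Groups came from the labels and doses from the study's methods. Per the methods and the submitters' processing notes, the authors trimmed reads with Trim Galore 0.6.4 and quantified them with kallisto against GRCh38.p13. The notes give kallisto 0.4.6 and edgeR 3.17. The annotation release is not given in the sources used here. The deposited values used here are the authors' estimated counts per Ensembl gene, not normalised. The log2 CPM files were not used.

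Estimated counts were rounded. Genes that passed filterByExpr were tested with edgeR 4.0.16 (R 4.3.3) by the robust quasi-likelihood test with TMM scaling and 1 mean per group over 9 libraries, with Benjamini-Hochberg adjustment over every gene in the fit. The step was also run on simulated counts. These had far fewer changed genes than the real data and no built-in shift in composition, so that run does not test the scaling. Positions are those of GENCODE release 44, to which 60357 of 60617 identifiers matched. Promoter sequences are from RefSeq, GRCh38.p14.

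The alternatives were DESeq2 1.42.0 and its size factors, library size alone, voom with limma 3.58.1, omission of the filter, mean counts of 10 or more, fits of the 6 libraries of a comparison, a replicate block, added fold thresholds, merged exon lengths, and fits without 1 library each. The 10 members, the gene lists and the alternatives were chosen with earlier results of these data known. All 10 members are named. Of each pathway list the 3 called genes with the largest absolute log2 fold change in any comparison are named, and of each companion list the 2. Of the genes listed as other HP1 proteins and H3K9 readers all 6 are named, with CBX3, UHRF2 and LBR outside that rule. For likeness, the 3 most correlated genes are named for the called members with the largest and the smallest change with decitabine. No 2 libraries agreed within sampling noise. Values of some marker genes are left out of the text.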

Additional observations from a re-analysis of the deposited data

Results flagged for a closer look

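The effects of the 2 treatments against the controls differed for 2 of the 10 genes by the test of the difference itself. CBX5 differed by 0.61 on the log2 scale (0.608, adjusted p = 0.00046 by edgeR's quasi-likelihood test, 3 libraries per group), with all 3 combination libraries above all 3 decitabine libraries. PPHLN1 differed by -0.31 (-0.312, adjusted p = 0.03), with all 3 combination libraries below all 3 decitabine libraries. Over all genes tested, 15.7% passed this comparison.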

How the results depend on the processing

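Counts of called genes are given against the values in the report. With library size as the only scaling, the 10 members gave 4 lower and 2 higher with decitabine and 3 higher with the combination, and the 51 other pathway genes gave 19 lower and 13 higher with decitabine, 15 higher with the combination and 2 lower between the treatments. Adding a log2 fold change over 0.5 left 4 members lower and 0 higher with decitabine, 0 lower between the treatments, 17 pathway genes lower and 3 higher with decitabine, 2 higher with the combination and 1 higher between the treatments. A threshold over 1 left 1 member lower and 0 higher with decitabine, 1 lower with the combination, and 0 higher and 0 lower between the treatments, with 4 pathway genes lower and 1 higher with decitabine, 5 lower and 1 higher with the combination and 0 higher between the treatments. Without a filter, 0 members were higher with decitabine, and MPHOSPH8 had a value of -0.0073 with the combination. With only the 6 libraries compared, 0 members were lower between the treatments, and at a mean of 10 counts or more 1 pathway gene was lower between them. Leaving out a library in turn gave 0 to 1 members higher with decitabine, 0 to 1 lower between the treatments, 2 to 7 pathway genes higher and 0 to 1 lower between the treatments. The values that changed sign did not pass the threshold. Over the fits that left out a library, these results ranged, against the controls with the combination, from -0.0376 to 0.0953 for MPHOSPH8, from -0.0245 to 0.0939 for MORC2 and from -0.0438 to 0.0792 for CBX5, and between the treatments from -0.1063 to 0.0756 for SETDB1, from -0.0733 to 0.0135 for MPHOSPH8 and from -0.1002 to 0.0122 for EHMT1. With library size alone, the combination values of MPHOSPH8 (0.2453), MORC2 (0.2572) and CBX5 (0.26) passed as higher. Beyond the constructions that test fewer genes or libraries, the cause was not tested.

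Same-number libraries deviated together with correlations of -0.017 to 0.233, and 2 of 9 were over 0.1. Those 2 were decitabine 1 with combination 1 (0.233) and decitabine 3 with combination 3 (0.229). Decitabine 1 with combination 3 and decitabine 3 with combination 1 were at -0.22. Whether the replicate numbers mark pairs was not settled, and the main fit did not use them. With the replicate block, 8 members were lower and 1 higher with decitabine, 7 lower and 0 higher with the combination, and 1 lower and 1 higher between the treatments, and no member's call changed. DESeq2's size factors, DESeq2 and voom with limma gave those same counts of members. Over single members, 476 values under an alternative kept their direction and side of the threshold, 18 lost the call, 4 gained it and 12 changed sign. Per-kilobase levels rest on the transcript length chosen, and an alternative on further EHMT2 identifiers was not run, since 1 identifier carries the symbol.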
